A study of Bos taurus with 8 samples.

Results

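The genes described here are 51 transcripts of bovine embryos whose level in RPL12-edited embryos went up 2-fold or more from the 4-cell to the 8-cell stage, without a matching difference in controls. RPL12 encodes a protein of the large ribosomal subunit. Members were chosen on the measured values by 3 conditions. The lower of both 8-cell edited libraries had to be at least 2 times the higher of both 4-cell edited libraries. The mean of the 8-cell edited libraries had to reach 5 CPM (a gene's reads as parts per 1e6 of the library, to a close approximation). The mean of the 8-cell controls had to lie below 1.5 times that of the 4-cell controls. Of the 16606 genes in the deposited table, 8490 met the floor of 5 CPM, 84 of these also met the condition on edited embryos, and 51 met all 3. The other 33 had a control ratio of 1.5 or more. The rise in edited embryos and its absence in controls are therefore the way the members were chosen and not a result, and every value that contrasts the stages is given as a description.

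The samples were 8 RNA libraries, each from a pool of 5 Bos taurus embryos made by fertilisation in vitro with oocytes from slaughterhouse ovaries. They form 4 groups of 2: control embryos at the 4-cell stage, control embryos at the 8-cell stage, and edited embryos at the same stages. For editing, PEmax and a guide RNA were injected into the cytoplasm of zygotes. PEmax is a prime editor, a nicking Cas9 joined to a reverse transcriptase that copies a change out of its guide RNA into the genome. The edit is named A148G in RPL12, without a statement of where position is counted from. Sample titles call the embryos base edited, 4-cell samples carry oocytes as their source name, and the labels say neither whether controls were injected nor what share of alleles carried the edit. RPL12 itself stood at 159 and 174 CPM in 4-cell controls, 96.3 and 97.6 CPM in 8-cell controls, 27.5 and 33.6 CPM in 4-cell edited and 14.1 and 11.9 CPM in 8-cell edited libraries, lower in all 4 edited libraries than in any control library. Nothing in the labels says that the 2 libraries of a group came from separate fertilisation runs, so the spread between them may be partly technical.

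Cattle embryos live at first on RNA stored in the egg. Stored messages are translated when their poly(A) tails are lengthened and are degraded as the embryo divides, and the embryo's own genome is switched on in its main wave around the 8-cell stage. CPM measures a transcript's share of the amplified polyadenylated RNA, not molecules per embryo. In pooled embryos, fewer cells of a type and less RNA per cell cannot be told apart.

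Libraries held 33527531 to 35122409 reads assigned to genes, and the 2 libraries of a group correlated across genes, which are not independent of each other, at a Pearson r of 0.971 to 0.978. The protocol amplified polyadenylated RNA as full-length cDNA and does not keep strand. All 15 oocyte and early embryo markers listed, such as ZP3, GDF9 and BMP15, were at 1 CPM or more in every library. Their sums, mostly BTG4, were not even between groups. They were 19369 and 25690 CPM in 4-cell controls, 37136 to 49786 CPM in 8-cell controls and 49073.5 to 57760 CPM in edited embryos. By limma, 7 of the 15 were higher in edited embryos averaged over stages (17.6% of all genes) and 0 lower (27.2%). Markers of other cell types were also detected. The 19 cumulus and granulosa markers summed to 1558 to 2042 CPM in 4-cell controls, 756 to 1064 CPM in 8-cell controls and 614 to 641 CPM in edited embryos, with FOXL2 at or near 0 throughout. In edited embryos these sums were mostly STAR, HAS2 and FDX1. CYP11A1 stood at 227 and 201 CPM in 4-cell controls and 3.33 and 14.5 CPM in 4-cell edited libraries. HAS2 stood at 24.3 and 55.4 CPM in 4-cell controls and 131.7 and 123.9 CPM in 4-cell edited libraries. By limma, 12 of the 18 cumulus and granulosa markers tested were lower in edited embryos averaged over stages and 1 was higher. The 7 connective tissue markers, mostly LUM, summed to 2619 to 6412 CPM in controls, 1324 to 1953 CPM in 4-cell edited and 127 to 773 CPM in 8-cell edited embryos. All 6 tested of these were lower in edited embryos. The 2 sperm markers in the table summed to 0.650 to 15.6 CPM, and the 1 tested, AKAP4, was called higher in edited embryos (2.81 to 15.2 CPM, against 0.503 to 3.13 CPM in controls). None of the cumulus, connective tissue or sperm markers is a member, and their part in the members' values was not tested.

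The members ranged widely in level. In 8-cell edited embryos their means ran from 5.46 CPM (GPR161) to 3987 CPM (FTL), with a median of 28.7 CPM. The corresponding medians were 9.63 CPM in 4-cell edited embryos, 22.2 CPM in 4-cell controls and 17.4 CPM in 8-cell controls. Libraries of a group differed by a median factor of 1.17 for the members in 8-cell edited and 1.21 in 4-cell edited embryos, against 1.22 and 1.33 for all 12129 genes tested. The condition on the lower and the higher library favours genes whose edited libraries lie close together. In controls the corresponding factors were 1.30 in 4-cell and 1.38 in 8-cell libraries, and OR9I2 differed 21.4-fold between both 8-cell control libraries. Together the 51 transcripts made up 5141 and 4869 CPM in the 4-cell edited libraries and 13764 and 12005 CPM in the 8-cell edited libraries, most of it from FTL and ID3. The same sums were 9947 and 8000 CPM in 4-cell controls and 6322 and 7956 CPM in 8-cell controls.

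**Figure D1:**
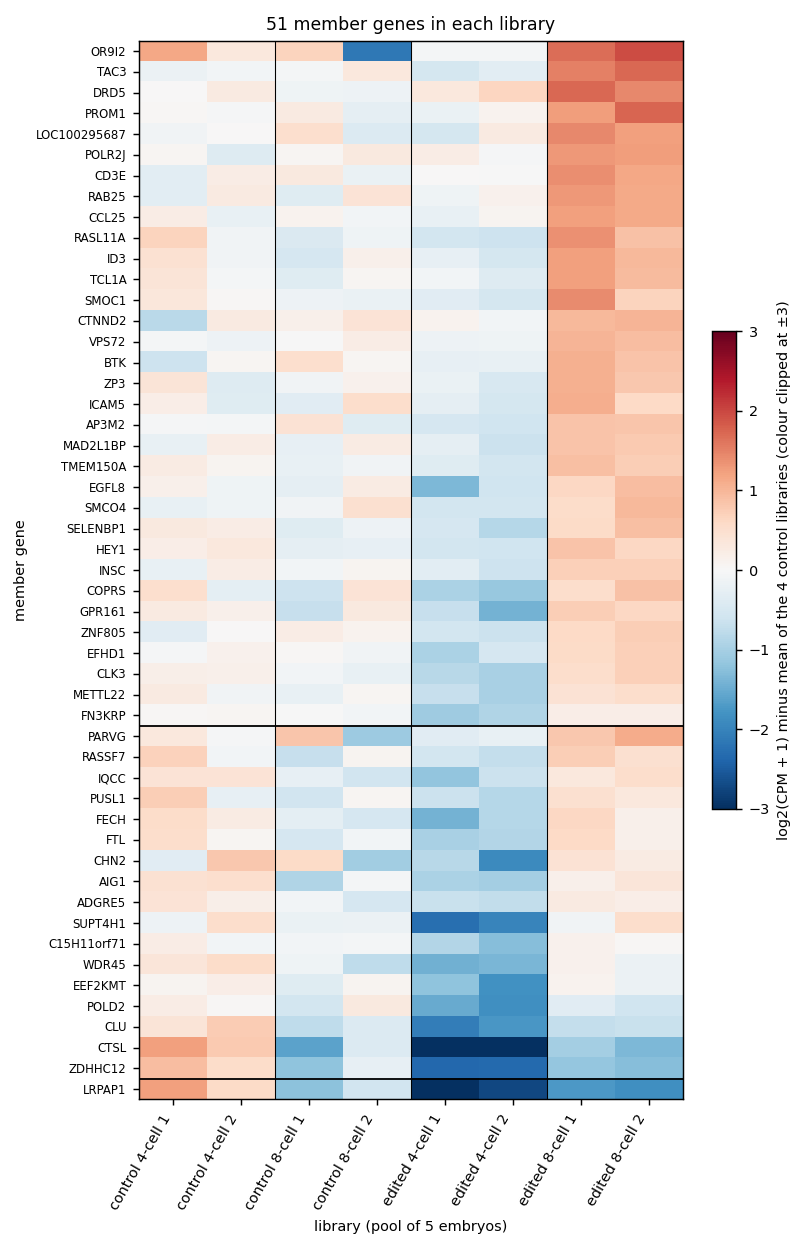
Heat map of the 51 members (rows) in each of the 8 libraries (columns), as log2(CPM + 1) minus the mean of the 4 control libraries, with the colour limited at 3 units in either direction. Horizontal lines separate the 33 members whose 8-cell edited libraries lay above all 4 control libraries, the 17 that overlapped the controls and LRPAP1, which stayed below them. The blue columns of the 4-cell edited libraries show that many members started below controls.

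Set against the controls, the members did not form a single pattern. For 33 of the 51 (64.7%) both 8-cell edited libraries lay above all 4 control libraries, whereas 29.4% of the 8490 genes with at least 5 CPM in 8-cell edited embryos did so. For 17 members the 8-cell edited libraries overlapped the range of the controls, and for LRPAP1 both lay below all controls. At the 4-cell stage both edited libraries were below all 4 control libraries for 33 members (64.7%, against 22.5% of the 8490 genes). The conditions on the edited libraries push both counts up, so nothing is read from their distance to those background shares. The 4-cell deficit was present in 18 of the 33 members that ended above the controls, in 14 of the 17 that overlapped them, and in LRPAP1. Accordingly 18 members went from below all controls to above all controls (0.883% of the 8490 genes), 14 went from below them to overlapping them (5.75%), and the other 15 of those that ended above all controls had not started below them all. DRD5 lay above all controls at both stages. An 8-cell edited level at least 1.5 times the highest control library was reached by 11 members. The share of all genes at this margin was not computed, so nothing is read from that count.

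The median member was lower in edited than in control embryos at the 4-cell stage, by a log2 difference of -0.84 on the log2(CPM + 1) scale, and higher at the 8-cell stage, by 0.79. Over all 12129 genes tested, those with a mean of at least 1 CPM, these medians were -0.02 and 0.00. In edited embryos the members' log2 differences between stages ran from 0.93 (ADGRE5) to 2.42 (CTSL), with a median of 1.30, and in controls from -2.02 to 0.56, with a median of -0.27. By limma with Benjamini-Hochberg adjustment, 24 members were called lower in edited embryos at the 4-cell stage (25.8% of all genes) and 19 higher at the 8-cell stage (1.08% of all genes). Between stages, 37 were called higher in edited embryos (1.45% of all genes) and 4 lower in controls (6.27% of all genes), namely CTSL, LRPAP1, ZDHHC12 and CLU. Since the rule used these libraries for the same differences, the counts only restate the choice. The difference edited minus control was more positive in 8-cell than in 4-cell libraries by limma's interaction term for 23 members (1.95% of all genes), the direction that the rule favours. Set against controls of the same stage, both edited libraries lay above both controls in 42 members (33.7% of the 8490 genes) and below in 1 (27.8%) at the 8-cell stage. At the 4-cell stage they lay below in 39 (30.8%) and above in 1 (41.7%), DRD5. The comparisons between stages and between conditions share libraries.

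**Figure D2:**
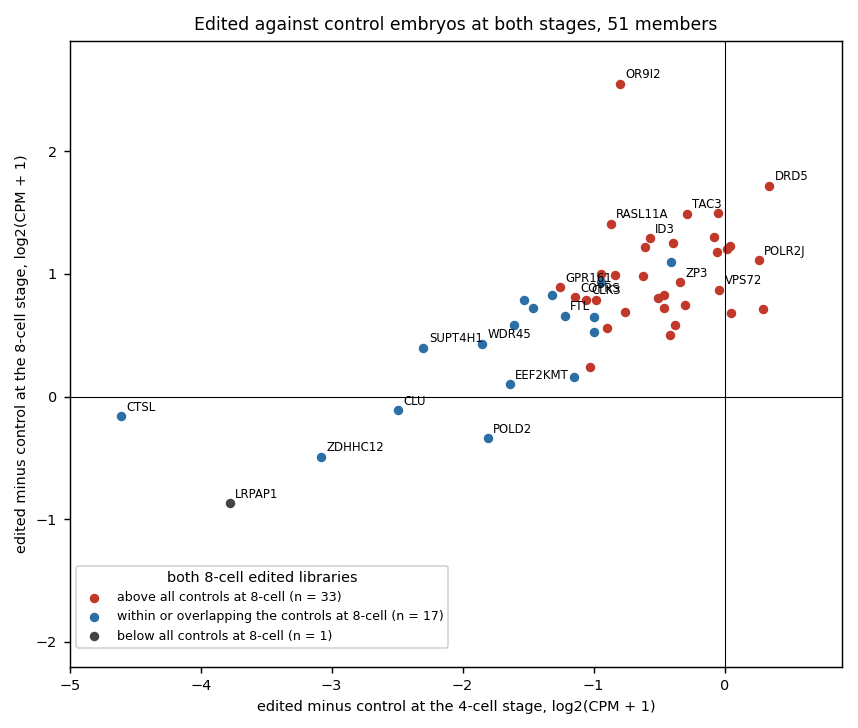
Difference between edited and control embryos at the 4-cell stage (horizontal axis) and at the 8-cell stage (vertical axis) for the 51 members, in log2(CPM + 1), coloured by where both 8-cell edited libraries lay against the 4 control libraries. The points spread from OR9I2, at -0.80 and 2.55, to CTSL, at -4.61 and -0.16.

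By known role, 11 members act in transcription, RNA processing or protein methylation, 15 in signalling, 15 in iron handling, metabolism, the lysosome or membrane traffic, 3 in DNA replication or cell division and 4 at the cell surface or in the egg coat, while 3 are not characterised. These roles were assigned after the values were known. Both 4-cell edited libraries were below all controls for 14 of the 15 genes of iron, metabolism, lysosome and traffic, 8 of the 11 transcription genes, 6 of the 15 signalling genes, 3 of the 3 replication and division genes, 0 of the 4 surface genes and 2 of the 3 uncharacterised genes, and for 22.5% of the 8490 genes at the floor. Over all 51 members this condition held for 64.7%, a share that the rule pushes up, so nothing is read from the distance of a role group to 22.5%. No difference between these role groups was tested.

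Among the transcription genes, SUPT4H1 had the widest swing. It encodes the small subunit of DSIF, the factor that binds RNA polymerase II after initiation and controls pausing and elongation. SUPT4H1 stood at 124 and 200.5 CPM in 4-cell controls, 121 and 122 CPM in 8-cell controls, 28.3 and 34.2 CPM in 4-cell edited and 129 and 200.3 CPM in 8-cell edited libraries. The 4-cell edited libraries were far below all the others, and the 8-cell edited libraries were in the range of the 4-cell controls, at 1.01 times their mean. POLR2J encodes a small subunit of RNA polymerase II itself. It was measured at 377 and 312 CPM in 4-cell edited and 794 and 773 CPM in 8-cell edited libraries, against 334 and 245 CPM in 4-cell and 333 and 394 CPM in 8-cell controls. The edited 4-cell values lay among the controls and the edited 8-cell values at 1.96 times the highest control library or above. VPS72, also known as YL1, is a histone chaperone that helps to place the variant H2A.Z in nucleosomes, and it entered the list of vesicle genes used here through its symbol alone. Its values were 482 and 454 CPM (4-cell) and 494 and 581 CPM (8-cell) in controls, and 452 and 456 CPM (4-cell) and 1013 and 954 CPM (8-cell) in edited libraries. The 6 other libraries lay between 452 and 581 CPM.

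CLK3, a kinase that phosphorylates splicing factors of the SR family, stood at 147 and 145 CPM in 4-cell controls, 122.7 and 111 CPM in 8-cell controls, 72.9 and 66.6 CPM in 4-cell edited and 190.2 and 217 CPM in 8-cell edited libraries. Both 4-cell edited libraries were below, and both 8-cell edited libraries above, all controls. COPRS, a partner of the arginine methyltransferase PRMT5 on histones, had 58.7 and 51.9 CPM in 4-cell edited and 165 and 212 CPM in 8-cell edited libraries, against 162 and 92.9 CPM in 4-cell and 74.1 and 153 CPM in 8-cell controls. Its lower 8-cell edited library was just above the highest control library. ZNF805, a zinc finger gene, went from below all controls to above all controls with 431 and 544 CPM (4-cell) and 631 and 584 CPM (8-cell) in controls, and 373 and 349 CPM (4-cell) and 818 and 906 CPM (8-cell) in edited libraries. In the RefSeq annotation used for names, ZNF805 overlaps AURKC, and the library kit does not keep strand. AURKC has no row of its own in the deposited table, and its part in the values of ZNF805 was not tested.

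ID3 and HEY1 encode transcriptional repressors of the helix-loop-helix type. ID3, which blocks DNA binding of other such factors and responds to BMP signalling, is abundant in these embryos and stood at 2032 and 1384 CPM in 4-cell controls, 1035 and 1642 CPM in 8-cell controls, 1246 and 1019.6 CPM in 4-cell edited and 3495 and 2906 CPM in 8-cell edited libraries. HEY1, a target of Notch signalling, was much weaker, with 18.3 and 17.5 CPM in 4-cell edited and 49.5 and 42.0 CPM in 8-cell edited libraries, against 31.4 and 34.0 CPM in 4-cell and 22.3 and 22.6 CPM in 8-cell controls. Both genes ended above all 4 control libraries, and HEY1 alone of the pair had started below them. EEF2KMT, which methylates elongation factor EEF2, had 20.7 and 22.6 CPM (4-cell) and 14.96 and 20.9 CPM (8-cell) in controls, and 7.98 and 4.88 CPM (4-cell) and 21.2 and 17.1 CPM (8-cell) in edited libraries, and its 8-cell edited values lay within the control range. METTL22, a lysine methyltransferase, ended above the controls, at 69.7 and 75.3 CPM against at most 62.1 CPM. PUSL1, a pseudouridine synthase-like gene, ended among them, at 12.2 and 10.7 CPM against 5.38 to 14.8 CPM.

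**Figure D3:**
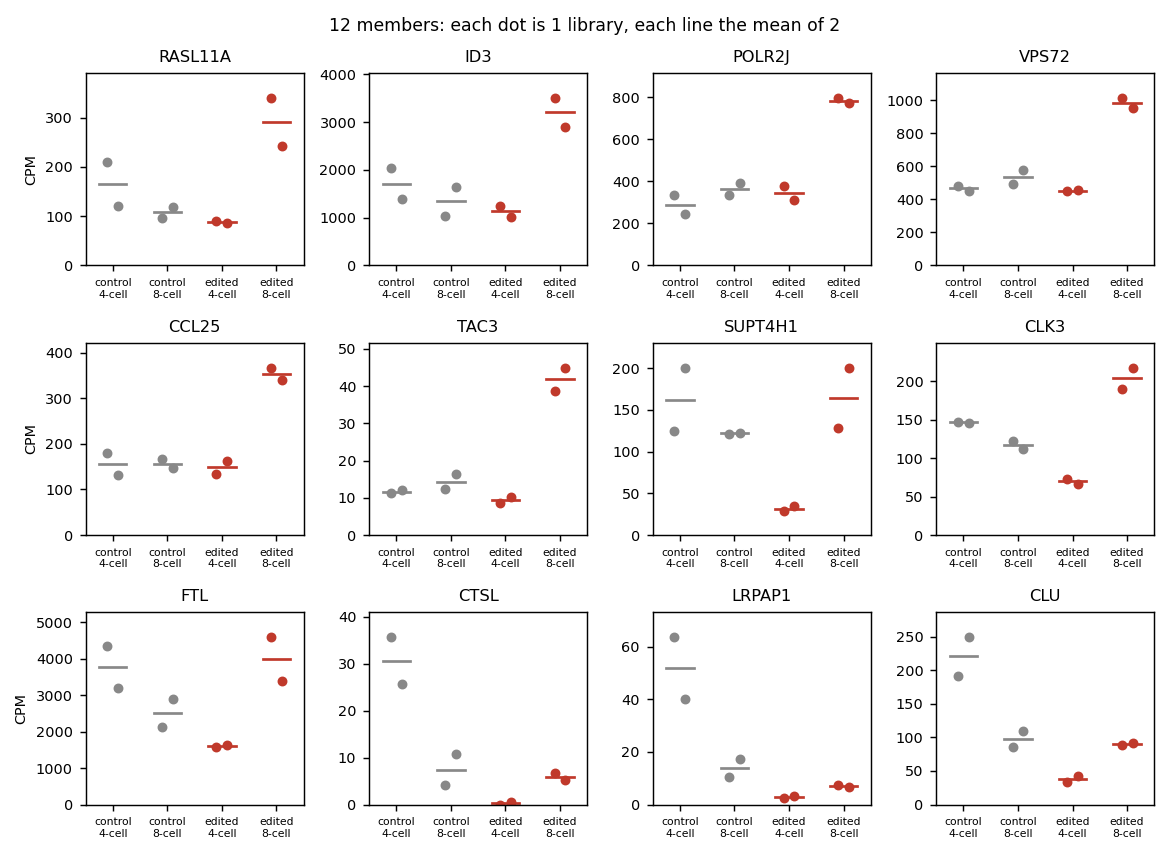
CPM of 12 members in each library (dots; grey for control and red for edited embryos, lines for the mean of 2), each panel with its own linear axis from 0. RASL11A, ID3, POLR2J, VPS72, CCL25 and TAC3 end above all controls. SUPT4H1 and FTL overlap the 4-cell controls at the 8-cell stage, and CTSL, LRPAP1 and CLU stay far below the 4-cell controls.

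The signalling members include ligands, receptors and intracellular regulators. The ligands CCL25 and TAC3 were both above all controls at the 8-cell stage. CCL25, a chemokine known from the thymus and the gut, was measured at 179.7 and 132 CPM in 4-cell controls, 166 and 147 CPM in 8-cell controls, 133 and 163 CPM in 4-cell edited and 367 and 341 CPM in 8-cell edited libraries. TAC3, the precursor of the neuropeptide neurokinin B, was at 8.65 and 10.1 CPM in 4-cell edited and 38.7 and 44.9 CPM in 8-cell edited libraries, against 11.3 and 12.02 CPM in 4-cell and 12.3 and 16.3 CPM in 8-cell controls. The 4-cell edited libraries overlapped the controls for CCL25 and lay below all of them for TAC3. Of the 36 tested genes on the list of secreted ligands and peptides these 2 were members.

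RASL11A, a RAS-like small GTPase, had 210.3 and 121 CPM (4-cell) and 96.1 and 119.7 CPM (8-cell) in controls, and 89.4 and 85.3 CPM (4-cell) and 339.5 and 243 CPM (8-cell) in edited libraries. Its edited libraries were the lowest of all at the 4-cell stage and the highest of all at the 8-cell stage. RASSF7, a protein with a RAS-association domain, had 4.08 and 3.54 CPM in 4-cell edited and 11.4 and 9.43 CPM in 8-cell edited libraries, the latter overlapping the controls. CHN2, a GTPase-activating protein for RAC, varied between control libraries from 29.9 to 111 CPM, which spans its 8-cell edited values of 84.9 and 74.8 CPM.

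Genes best known from lymphocytes were present at low to moderate level. CD3E, a subunit of the T cell receptor complex, had 2.52 and 4.16 CPM in 4-cell controls, 4.35 and 2.84 CPM in 8-cell controls, 3.41 and 3.36 CPM in 4-cell edited and 10.6 and 8.75 CPM in 8-cell edited libraries. The 7 other blood and immune markers in the table, of which HBA and HBA1 hold the same values, summed to 2.00 to 5.75 CPM in every library, and PTPRC itself stayed below 1 CPM. BTK, a tyrosine kinase of B cells, was at 56.1 and 56.6 CPM in 4-cell edited and 139.6 and 121 CPM in 8-cell edited libraries, against 43.0 and 69.1 CPM in 4-cell and 94.9 and 68.8 CPM in 8-cell controls. TCL1A, a co-activator of the kinase AKT that is also an oocyte transcript, reached 32.8 and 26.7 CPM in 8-cell edited libraries against 10.1 to 17.7 CPM in controls. PARVG, a parvin of the integrin adhesion complex, ended at 5.77 and 7.40 CPM, and its controls ran from 0.798 to 5.84 CPM.

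The receptors of the G-protein-coupled family number 4, and all but OR9I2 were near the floor of 5 CPM. The dopamine receptor gene DRD5 had 1.36 and 1.82 CPM (4-cell) and 1.14 and 1.12 CPM (8-cell) in controls, and 1.91 and 2.66 CPM (4-cell) and 6.69 and 5.39 CPM (8-cell) in edited libraries, and its 8-cell edited libraries were at least 2.97 times any control library. GPR161, an orphan receptor that dampens Hedgehog signalling, went from 1.48 and 0.497 CPM to 5.71 and 5.21 CPM in edited embryos, with controls from 1.49 to 3.90 CPM. ADGRE5, an adhesion receptor also called CD97, ended at 6.72 and 6.41 CPM, within its control range of 3.55 to 7.59 CPM. The olfactory receptor gene OR9I2 had 13.0 and 6.71 CPM in 4-cell controls, 8.87 and 0.414 CPM in 8-cell controls, 4.97 and 4.94 CPM in 4-cell edited and 18.9 and 23.2 CPM in 8-cell edited libraries. Its second 8-cell control library was close to 0 while the other controls were not. Without the first 8-cell control library OR9I2 was called higher in edited embryos averaged over stages (log2 difference 1.58, limma adjusted p-value 0.000463), against 0.87 and 0.118 with all libraries. The matrix protein gene SMOC1 ended at 53.1 and 31.1 CPM and EGFL8, a secreted protein with EGF-like domains, at 9.92 and 12.5 CPM, both above all controls.

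FTL, the light chain of the iron store ferritin, was the most abundant member. It stood at 1565 and 1646 CPM in 4-cell edited and 4586 and 3387 CPM in 8-cell edited libraries, against 4362 and 3200.4 CPM in 4-cell and 2135 and 2904 CPM in 8-cell controls. The 4-cell edited libraries were below every control library and the 8-cell edited libraries overlapped the 4-cell controls. FTL has processed pseudogenes in mammals, so its reads are uncertain to the extent that counting could split them. FECH, which inserts iron into haem, showed the same order at low level, with 1.76 and 3.04 CPM in 4-cell edited, 10.3 and 7.19 CPM in 8-cell edited and 4.17 to 9.76 CPM in control libraries. SELENBP1, a selenium-binding methanethiol oxidase, ended above all controls at 209.7 and 265 CPM, as did FN3KRP, a kinase that repairs glycated proteins, at 81.8 and 81.7 CPM.

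The largest relative difference between stages in edited embryos was that of CTSL, a lysosomal cysteine protease. CTSL stood at 35.6 and 25.7 CPM (4-cell) and 4.09 and 10.7 CPM (8-cell) in controls, and 0 and 0.643 CPM (4-cell) and 6.69 and 5.15 CPM (8-cell) in edited libraries. It had no read in the first 4-cell edited library, and its 8-cell edited level, 5.92 CPM on average, was 0.193 times that of 4-cell controls and overlapped that of 8-cell controls. LRPAP1, the chaperone of LDL-receptor-family proteins in the endoplasmic reticulum, had 63.6 and 40.1 CPM in 4-cell controls, 10.6 and 17.3 CPM in 8-cell controls, 2.43 and 3.10 CPM in 4-cell edited and 7.29 and 6.68 CPM in 8-cell edited libraries. ZDHHC12, a palmitoyltransferase, had 6.25 and 6.35 CPM in 4-cell edited and 15.7 and 14.3 CPM in 8-cell edited libraries, against 69.3 and 53.2 CPM in 4-cell and 15.1 and 30.3 CPM in 8-cell controls. CLU, the extracellular chaperone clusterin, had 192 and 249 CPM (4-cell) and 86.2 and 109 CPM (8-cell) in controls, and 34.1 and 42.6 CPM (4-cell) and 89.0 and 91.0 CPM (8-cell) in edited libraries. In all 4 genes controls were lower in the 8-cell than in the 4-cell libraries, and edited embryos were lowest at the 4-cell stage. In each of these genes both 8-cell edited libraries lay above both 4-cell edited libraries but below both 4-cell controls. Against the 8-cell controls they overlapped for CTSL, ZDHHC12 and CLU and lay below for LRPAP1. The stages are different pools and no earlier stage was measured, so no course over time is read from this.

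Among the genes of membrane traffic, WDR45, an autophagy protein that binds phosphoinositides, had 33.5 and 38.1 CPM in 4-cell controls, 23.6 and 14.8 CPM in 8-cell controls, 8.97 and 9.36 CPM in 4-cell edited and 28.6 and 22.7 CPM in 8-cell edited libraries, within the control range at the end. AP3M2, a subunit of the AP-3 coat, ended above all controls at 25.3 and 24.9 CPM, and so did RAB25, an epithelial RAB11-like GTPase, at 15.2 and 13.4 CPM against at most 7.63 CPM. The membrane proteins TMEM150A and SMCO4 and the mitochondrial calcium-binding protein EFHD1 ended above the controls too, at 108, 239.8 and 28.7 CPM on average. AIG1, a hydrolase of fatty acid esters of hydroxy fatty acids, ended within the control range at 8.88 and 10.4 CPM.

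ZP3 encodes a glycoprotein of the zona pellucida, the egg coat, and is transcribed in the growing oocyte. ZP3 stood at 113 and 93.4 CPM in 4-cell edited and 273 and 229 CPM in 8-cell edited libraries, against 171 and 98.9 CPM in 4-cell and 120.4 and 143 CPM in 8-cell controls, with 4-cell edited libraries overlapping the controls and 8-cell edited libraries above them. It was the 1 member among 35 tested oocyte-stored transcripts, of which 12 were called higher and 2 lower in 4-cell edited embryos than in their controls (18.9% and 25.8% of all genes), and 3 higher and 1 lower at the 8-cell stage (1.08% and 14.5%). Between stages in edited embryos, 7 of the 35 were called higher (1.45% of all genes) and 1 lower. PROM1, a protein of membrane protrusions also called CD133, had 3.07 and 2.87 CPM (4-cell) and 3.75 and 2.28 CPM (8-cell) in controls, and 2.46 and 3.28 CPM (4-cell) and 8.46 and 12.2 CPM (8-cell) in edited libraries. ICAM5, an adhesion molecule known from neurons, and CTNND2, a delta-catenin of cell junctions, ended at 7.27 and 8.95 CPM on average, above all controls.

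POLD2, a subunit of the replicative DNA polymerase delta, had 10.9 and 9.50 CPM in 4-cell controls, 6.01 and 11.5 CPM in 8-cell controls, 2.57 and 1.84 CPM in 4-cell edited and 7.05 and 5.78 CPM in 8-cell edited libraries, and its 8-cell edited values overlapped the low end of the controls. MAD2L1BP, which helps to silence the spindle checkpoint, ended above all controls at 46.7 and 44.2 CPM, and INSC, an adaptor of spindle orientation, at 30.0 and 30.3 CPM. Of the 3 uncharacterised genes LOC100295687 ended above the controls, at 29.2 and 25.3 CPM, whereas IQCC and C15H11orf71 overlapped them, at 17.4 and 15.6 CPM on average.

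A comparison that the rule did not use directly is edited against control embryos averaged over both stages, since it takes the sum of the stages where the rule took their difference. It shares all libraries with the rule, and the floor of 5 CPM applied to the 8-cell edited libraries. The rule also favours members whose edited libraries lie close together, and limma estimates the spread partly from these libraries. The standard errors (SE) and adjusted p-values of members are therefore not free of the choice. By limma with Benjamini-Hochberg adjustment over 12129 genes, 6 members were higher in edited embryos (11.8% of members, against 17.6% of all genes) and 8 were lower (15.7%, against 27.2%). Both shares lie below those of all genes, which did not have to pass the conditions set on the members. Called shares among the 8490 genes at the floor are not given here, so nothing is read from the difference. The median log2 difference was 0.04 in the members, 0.04 in all genes and 0.17 in the 8490 genes at the floor of 5 CPM, and 27 of the 51 were above 0 where 51.9% of all genes were. The 33 genes that went up in both conditions had a median of 0.57.

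The 8 members lower in edited embryos were LRPAP1 (log2 difference -2.32, SE 0.26), CTSL (-2.39, SE 0.31), CLU (-1.30, SE 0.17), ZDHHC12 (-1.78, SE 0.24), SUPT4H1, POLD2, EEF2KMT and WDR45. Their limma adjusted p-values ran from 2.23e-06 for LRPAP1 to 0.0150 for WDR45. The 6 higher were POLR2J (0.69, SE 0.16), DRD5 (1.03, SE 0.27), CCL25 (0.56, SE 0.16), VPS72, TAC3 and PROM1, with limma adjusted p-values from 0.00203 for POLR2J to 0.0390 for PROM1. None of the 8 lower genes ended above all controls, and all 6 higher genes did. Both comparisons use the same 8-cell edited and control libraries, so this agreement is largely built in and nothing is read from it. Several calls were lost when 1 library was left out, which also leaves fewer libraries to test. Over these losses the log2 differences were 0.36 to 0.44 for VPS72, -0.70 to -0.62 for EEF2KMT, -0.63 to -0.55 for WDR45, 0.50 to 0.65 for TAC3 and 0.59 to 0.75 for PROM1. VPS72 was lost without the first 8-cell control or either 8-cell edited library (limma adjusted p-value up to 0.101), EEF2KMT without the second 8-cell control, second 4-cell edited or second 8-cell edited library (up to 0.0721), and WDR45 without the first 8-cell control or second 8-cell edited library (up to 0.0864). TAC3 was lost without the first library of any group other than 4-cell edited, or without the second edited library of either stage (up to 0.127), and PROM1 without either 4-cell control, the second 8-cell control or the second edited library of either stage (up to 0.144), and also with genes of all levels tested (0.0710). Without the second 8-cell edited library fewer members were called higher, and so were fewer of all genes tested. Nothing particular to the members is read from that drop.

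**Figure D4:**
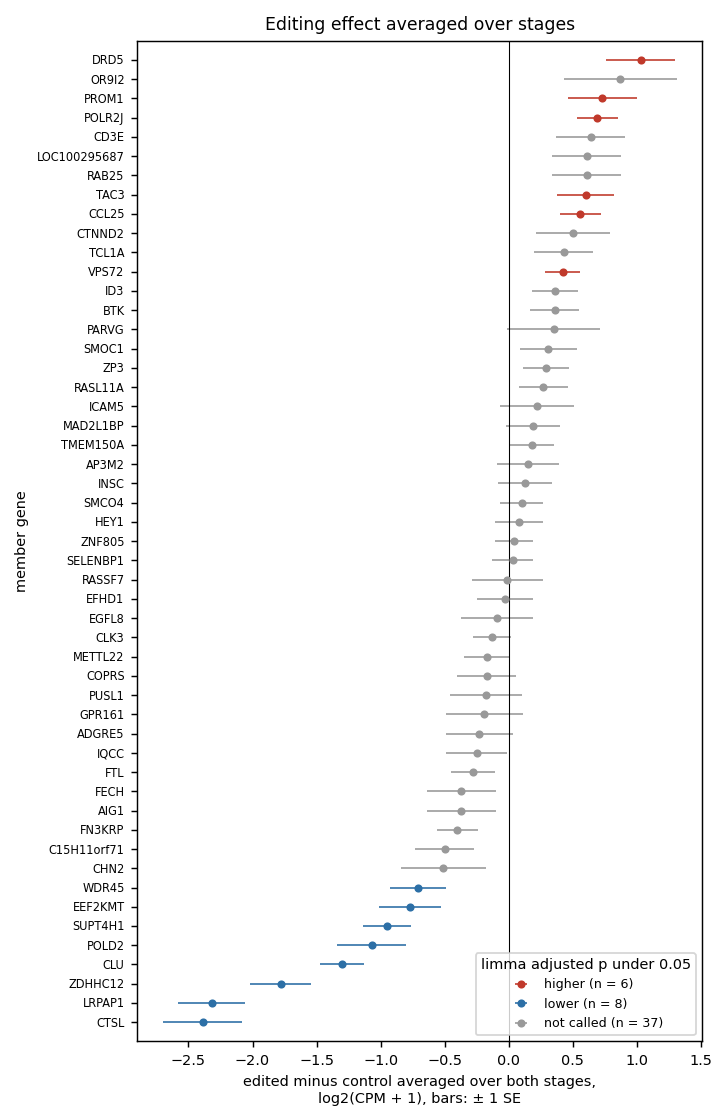
Difference between edited and control embryos averaged over both stages for each member, in log2(CPM + 1) with bars of 1 SE from limma. Values spread from -2.39 (CTSL) to 1.03 (DRD5) around a median of 0.04, with 6 members called higher (red), 8 called lower (blue) and OR9I2, at 0.87, not called.

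The genes tested on each of 23 lists of pathways and gene families show where members fell. Members made up 0.420% of all tested genes, 14 of the 51 were on at least 1 list, and 14 lists held none. The lists without members include the transcripts activated at the 8-cell stage (13 tested), chromatin modifiers (92), cell cycle regulators (72), p53 regulators and targets (29), apoptosis regulators (27), the integrated stress and unfolded protein response (30), histone genes (53), cytosolic ribosomal proteins (79), ribosome biogenesis factors (98) and membrane solute carriers (218). The largest was that of ubiquitin ligases, conjugating enzymes and proteases (315). At a share of 0.420%, few or no members fall on lists of these sizes in any case, so nothing is read from an empty list. The RNA polymerase II machinery held POLR2J and SUPT4H1 (2 of 102), the lineage transcription factors ID3 and HEY1 (2 of 32), the splicing factors CLK3 (1 of 80), the numbered zinc finger genes ZNF805 (1 of 270), the G-protein and RAS regulators RASL11A and RASSF7 (2 of 130), and the RAB and coat list RAB25 and VPS72 (2 of 201). EEF2KMT was on the list of translation factors through its symbol, although it is an enzyme that modifies one.

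Known partners and relatives of 15 members were then looked up, from a table written once the members were known. Of the 64 partners tested, 1 met the condition of a 2-fold rise in edited embryos. It was the lysosomal protease CTSA, at 0.810 and 0.819 CPM in 4-cell and 2.75 and 2.13 CPM in 8-cell edited libraries. Among the 8490 genes at the floor of 5 CPM, which CTSA did not reach, 84 met that condition. The rise was thus rare among genes at large, and nothing is read from the count for partners. By limma, 2 partners were called higher in the 8-cell than in the 4-cell libraries in edited embryos (1.45% of all genes), namely POLR2C and ZP4, and 2 lower (3.73% of all genes), namely YEATS4 and CTSH. Because members were picked for this difference and partners were not, members lie above partners by choice, and the partners' values are given as a description.

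SUPT5H, the large subunit of DSIF, stood at 18.4 and 18.2 CPM in 4-cell controls, 18.9 and 23.8 CPM in 8-cell controls, 32.3 and 15.5 CPM in 4-cell edited and 17.6 and 19.0 CPM in 8-cell edited libraries. Its log2 difference between stages in edited embryos was -0.28, against 2.33 for SUPT4H1. Among the other subunits of RNA polymerase II, POLR2C had 172 and 145 CPM in 4-cell edited and 336 and 413 CPM in 8-cell edited libraries. Its controls had 393 and 447 CPM (4-cell) and 334 and 335 CPM (8-cell). As for SUPT4H1, the 4-cell edited libraries lay below all controls and the 8-cell edited libraries within the control range. The remaining 9 tested subunits differed between stages in edited embryos by log2 values from -0.82 (POLR2K) to 0.66 (POLR2E), against 1.19 for POLR2J. ID1 and ID2, the relatives of ID3, stayed low in edited embryos. ID1 was at 1.33 and 2.25 CPM in 4-cell and 2.51 and 1.68 CPM in 8-cell edited libraries, against 5.75 to 64.5 CPM in controls. Averaged over stages, ID1 and ID2 were lower in edited embryos by log2 values of -3.19 and -2.46 (limma adjusted p-values 1.83e-06 and 3.33e-07), whereas ID3 differed by 0.36 (adjusted p-value 0.125).

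FTH1, the heavy chain of ferritin, had 4161 and 2834 CPM (4-cell) and 1457 and 2262 CPM (8-cell) in controls, and 604 and 779 CPM (4-cell) and 713 and 646 CPM (8-cell) in edited libraries. It was lower in edited embryos at both stages and differed by -0.02 (log2) between stages in edited embryos, against 1.30 for FTL. The other haem enzymes differed between stages in edited embryos by log2 values from -0.64 (PPOX) to 0.74 (ALAD), against 1.52 for FECH. The zona genes ZP2 and ZP4 stood at 1430.5 and 1531, and at 1022 and 1261 CPM, in 4-cell edited libraries. In 8-cell edited libraries they stood at 1806 and 2521, and 2117 and 2425 CPM, and by limma ZP4 was called between these stages while ZP2, with a log2 difference of 0.53, was not. Controls differed by 0.69 for ZP2 and 0.45 for ZP4 between stages, against 0.01 for ZP3. The splicing kinases CLK1, CLK2 and CLK4 differed in edited embryos by -0.97, 0.14 and -0.35, against 1.53 for CLK3. The other 10 subunits of the H2A.Z-loading complexes ran from -1.12 (YEATS4) to 0.84 (KAT5), against 1.11 for VPS72.

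**Figure D5:**
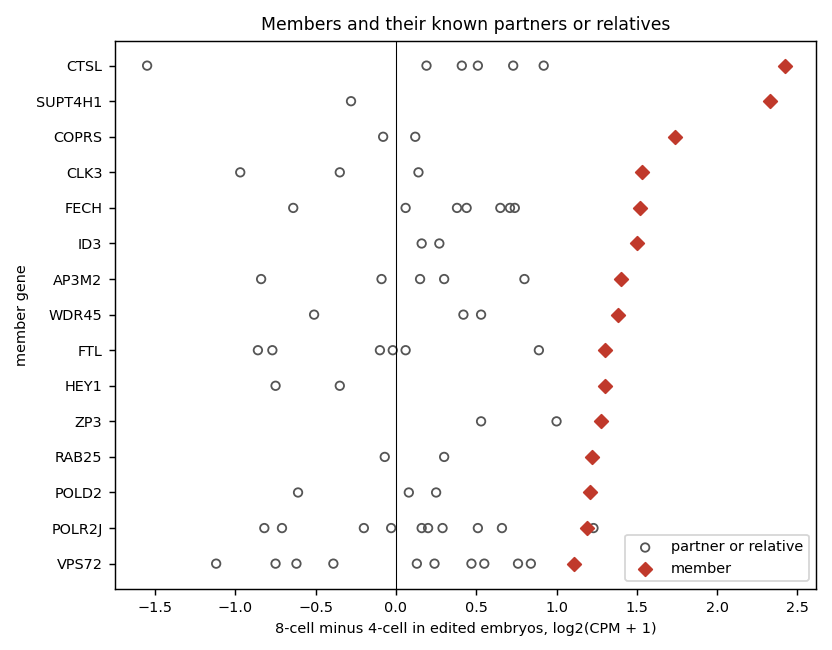
Difference between the 8-cell and the 4-cell stage in edited embryos, in log2(CPM + 1), for 15 members (red diamonds) and their known partners or relatives (open circles, 64 genes). Members were chosen for this difference, and most partners lie within 1 unit of 0, with POLR2C at 1.23 beside POLR2J at 1.19.

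All 51 symbols matched the RefSeq gene table (assembly ARS-UCD2.0), which was used for names and neighbours. Members lay scattered, with 3 pairs within 10 protein-coding genes of each other: POLR2J and ZP3, EEF2KMT and METTL22, and SELENBP1 and VPS72. There, 10 members overlap another protein-coding gene. Of the overlapping genes 6 were tested, while ALG1 and PKN3 lay below the filter. AURKC and LOC104970180 have no row under these symbols in the deposited table, so no values can be set beside ZNF805 and METTL22. RBM7 differed by -0.37, GTPBP2 by -0.34, SLC2A9 by 0.33, INTS11 by 0.19, AGPAT1 by 0.05 and TULP2 by 0.01 (log2) between stages in edited embryos, and none of the 6 was called by limma.

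Genes next to the limits of the rule differed little from members. Just inside the 2-fold limit were CTNND2, LOC100295687 and DRD5, with ratios of 2.01 to 2.03, and just outside it were SDSL, FGR and ANAPC11, each at 1.99. GPR161, CTSL and DRD5 had the means closest above 5 CPM, whereas MIP, DPF1 and ACTRT3 missed that floor at 4.79, 4.41 and 4.38 CPM. The control ratio of CTNND2, BTK and SMCO4 was 1.49, 1.46 and 1.31, and FGFBP1, NADK and CCDC141 were left out at 1.58, 1.71 and 1.84. The number of genes chosen rests on having both libraries of an edited group, because the rule takes the less favourable of them. It was 480 without the first and 112 without the second 4-cell edited library, and 133 and 189 without the first and second 8-cell edited library, with all 51 members included each time. The choice also moved with the scaling of the libraries. With TMM factors, which set the second 4-cell edited library at 0.897, 51 genes again met the rule but 38 of them were the same, and the 13 that no longer met it include FTL, VPS72, CCL25, BTK, DRD5, CLU and LRPAP1.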

How the data were processed

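RNA from 8 pools of 5 bovine embryos was amplified with a SMART-seq kit for full-length cDNA and made into Nextera XT libraries, per the labels' protocols. Trim Galore 0.6.7, HISAT2 2.2.1 and featureCounts 2.0.1 are named in the submitters' processing notes, while the genome build, annotation and scaling are not given in the sources used here. The deposited table is called raw reads but holds CPM: every value in the 8 columns used was a whole multiple, within 0.05 reads, of what 1 read is worth in its library. From these steps 3 reads, the smallest amount taken as detected, correspond to 0.0858 to 0.0899 CPM, and such limits cover counting error only. The values of a library sum to 992528 to 1007024 CPM and not to exactly 1e6, so the library size used for scaling is not known. The table has 12 value columns, of which 4 match no sample analysed here and were not used.

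The main test, limma 3.58.1 under R 4.3.3, was run on log2(CPM + 1) with a mean-variance trend, so that fold changes of low genes are understated. It used the 12129 genes whose mean over libraries reached 1 CPM, 1 mean for each group, all 8 libraries, and Benjamini-Hochberg adjustment over all genes, with a call at an adjusted p-value under 0.05. With 2 libraries in a group the spread is estimated across groups and genes. The procedure was tested on simulated data. Alternatives were edgeR 4.0.16 and DESeq2 1.42.0 on the recovered reads, other pseudocounts and filters, TMM scaling, a replicate block and leaving out each library. A block with crossed numbers was added after seeing the data.

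The members and gene lists were chosen with earlier results of these data known, and the roles and partners after the members were known. Genes named by rule were the members with the largest ratio in edited embryos, the highest 8-cell edited level, the largest ratio to controls, the smallest p-values averaged over stages, those on a list, and those nearest each limit. The other members are named to account for all 51, after their values were seen. Promoter motifs had been planned and were not analysed here.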

Additional observations from a re-analysis of the deposited data

Results flagged for a closer look

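For 23 members (45.1%, against 1.95% of all genes) the difference edited minus control was more positive in 8-cell than in 4-cell libraries by limma's interaction term, with adjusted p-values of 0.00681 to 0.0446. The rule chose members on the same libraries for this difference, so the values are a description and nothing is read from them. On the log2(CPM + 1) scale the interaction was 4.44 for CTSL, 3.36 for OR9I2, 2.91 for LRPAP1, 2.70 for SUPT4H1, 2.59 for ZDHHC12, 2.38 for CLU, 2.32 for FECH, 2.28 for RASL11A and for WDR45, 2.19 for AIG1 and 2.16 for IQCC. It was 1.94 for SELENBP1 and for COPRS, 1.88 for FTL, 1.86 for ID3, 1.85 for CLK3, 1.83 for HEY1, 1.82 for SMOC1, 1.78 for TAC3, 1.61 for TMEM150A, 1.46 for METTL22, 1.27 for FN3KRP and 1.24 for CCL25.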

How the results depend on the processing

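With 2 libraries in a group the precision is limited. The number of genes meeting the rule was 323 with a rise of 1.5 times, 5 with a rise of 3 times, 138 with a floor of 1 CPM and 30 with a floor of 20 CPM, and ran from 49 to 480 when 1 library was left out. Members with both 8-cell edited libraries above all controls numbered 11 when 1.5 times the highest control library was required and 33 to 38 without 1 library. Shares over all genes were not computed for these settings, so nothing is read from the numbers. Averaged over stages, 4 to 8 members were called higher and 8 to 9 lower across the other tools, pseudocounts, filters, scaling and blocks. Over all genes tested under the same settings, 1777 to 2681 were called higher and 2539 to 3454 lower. Nothing particular to the members is read from these counts. Without 1 library several calls of members were lost, as given above. TMM scaling moved the median of all genes by 0.07 (log2) and the share of calls that were higher from 39.3% to 46.1%. Of 454 values of single members under settings that kept all libraries, 439 kept direction and call, 2 lost the call, 6 gained one and 7 changed sign. The 7 were never called: EFHD1 (0.05 with edgeR, 0.01 with DESeq2, 0.04 with TMM), RASSF7 (0.00 with edgeR, 0.01 with a pseudocount of 5 CPM, 0.06 with TMM) and EGFL8 (0.01 with that pseudocount), where the cause was not tested. Of 408 values without 1 library, 357 kept both, 18 lost the call, 11 gained one and 22 changed sign. Those that changed sign ran from -0.05 to 0.34 for AP3M2, -0.43 to 0.09 for COPRS, -0.15 to 0.08 for EFHD1, -0.28 to 0.09 for EGFL8, -0.43 to 0.06 for GPR161, -0.13 to 0.83 for PARVG, -0.42 to 0.07 for PUSL1, -0.20 to 0.19 for RASSF7, -0.05 to 0.11 for SELENBP1, -0.05 to 0.25 for SMCO4 and -0.05 to 0.12 for ZNF805.

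Libraries with the same number did not deviate together, with correlations of -0.30 to 0.11 between groups. With the replicate number as a block, 2002 genes were called higher and 3233 lower, and 5 members higher and 8 lower (PROM1 had a limma adjusted p-value of 0.0518). With the numbers of the 8-cell controls crossed, the counts were 2359, 3408, 7 and 9.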

Other observations

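After TMM scaling, 13 genes met the rule that did not meet it on the deposited scale. They include POLR2C, a subunit of RNA polymerase II like the member POLR2J, TCL1B, a relative of the member TCL1A, the mitotic kinase AURKB and the anaphase-promoting complex subunit ANAPC11. These genes were noticed after their values were seen, and no test was made on them.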
